A study of Mus musculus with 6 samples.

Results

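The genes described here encode 7 ligands through which an antigen-presenting cell stimulates or restrains a T cell: Cd80, Cd86, Cd274, Pdcd1lg2, Icosl and Cd276 of the B7 family, and Cd70 of the TNF family. They were chosen by name, as 7 of the 43432 gene IDs in the count table, and all 7 had counts in every library. RNA was sequenced from medullary thymic epithelial cells (mTEC), isolated at 4 weeks of age from mice on the C57BL/6 strain. Mice with the genotype CopaE241K/+ (MUT) gave 3 libraries and Copa+/+ mice (WT) gave 3. The product of Copa is alpha-COP, a subunit of the COPI coat on vesicles that return from the Golgi to the endoplasmic reticulum. The E241K allele was present in 1 copy and was not limited to mTEC by anything the labels state. The labels do not say whether a library came from 1 mouse or a pool, so the spread that enters each p-value is that between libraries and may in part be technical.

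T cells need a signal beyond antigen, and the B7 ligands deliver it. CD80 and CD86 bind the activating receptor CD28 and the inhibitory receptor CTLA-4, while PD-L1 (Cd274) and PD-L2 (Pdcd1lg2) bind the inhibitory receptor PD-1. ICOS ligand (Icosl) binds ICOS, CD70 binds CD27, and the receptor of B7-H3 (Cd276) is not settled. In the thymic medulla these ligands on mTEC and dendritic cells take part in deleting self-reactive thymocytes and in forming regulatory T cells, and high CD80 together with MHC class II marks mature mTEC.

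Library totals ran from 21218363 to 23366238 counts in MUT and from 19934513 to 22880945 in WT. WT library 1 had the fewest detected genes, 17174, against 24774 in MUT library 3, the most. Copa itself measured 377.1, 297.5 and 368.2 CPM (counts scaled to a common library size) in MUT and 568.5, 277.2 and 353.3 CPM in WT, which does not check a change of 1 amino acid. The mTEC label held: Aire, the regulator of tissue antigens, measured 928.7, 1415 and 1563 CPM in MUT and 1379, 953.7 and 1359 CPM in WT, and Epcam, an epithelial surface protein gene, measured 417.8, 441.4 and 593.2 CPM in MUT and 628.7, 641 and 751.2 CPM in WT. All MUT libraries lay below all WT libraries for Epcam, an order that 3.96% of all tested genes had. Its log2 fold change of -0.48 (SE 0.28) did not pass the test. Ccl21a was the mTEC marker at 0 in a library, with 4, 0 and 4 counts in MUT and 0, 0 and 0 in WT. No gene of the 17172 tested passed an adjusted p of 0.05 (0.0% called, edgeR quasi-likelihood test), where no adjusted p was below 0.999875. Without adjustment, 279 genes were higher in MUT at a p under 0.05 (1.62%) and 318 lower (1.85%).

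None of the 7 ligand genes passed the test, and for each of them the MUT and WT libraries overlapped. None was called either by DESeq2, which called 0.621% of the genes it adjusted, by edgeR with no filter on low counts (0.253%) or with the replicate number as a block (0.00582%), or by limma-voom (0.0%). In the table as a whole every MUT library lay above every WT library for 5.39% of tested genes and below for 3.96%. The fitted value was above 0 for 4 of the 7 (Cd80, Cd86, Cd274 and Pdcd1lg2) and below 0 for 3 (Icosl, Cd276 and Cd70), against 49.4% of all tested genes above 0. The members' median log2 fold change was 0.34, against -0.01 for all tested genes. That median was -0.17 without MUT library 2 and 0.02 without WT library 1.

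**Figure D1:**
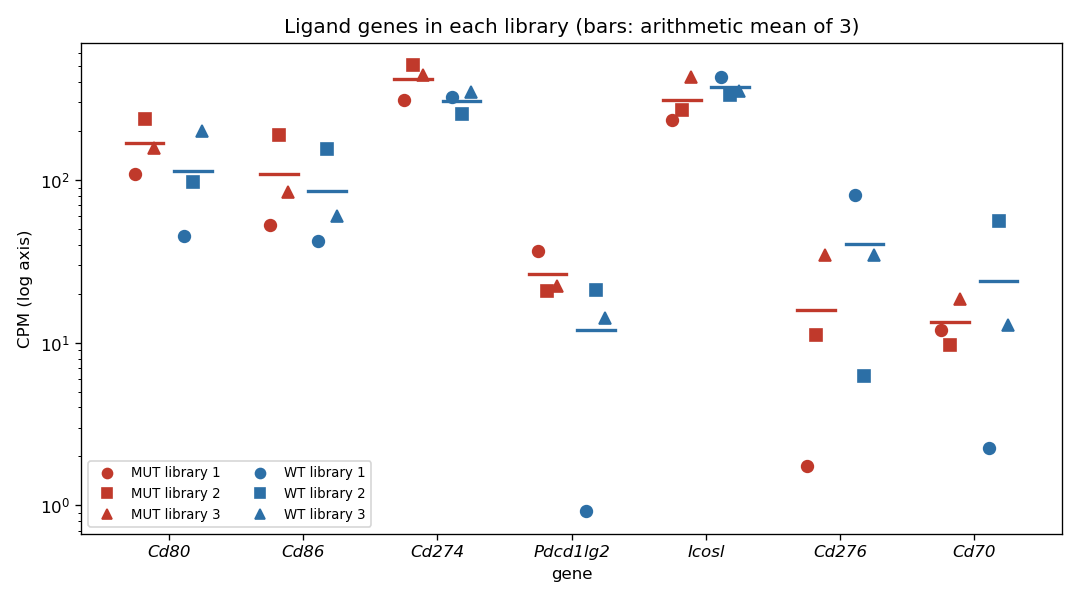
CPM on a log axis for each ligand gene in each library, with MUT left of WT, a symbol for each library number and a bar at the mean of 3. Cd274 and Icosl lie between 235.0 and 507.5 CPM in every library, while the highest library exceeds the lowest 39.7-fold for Pdcd1lg2, 46.25-fold for Cd276 and 25.2-fold for Cd70.

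CD80 and CD86 are the shared ligands of CD28 and CTLA-4, and their genes both lie on chromosome 16. Cd80 (ENSMUSG00000075122, 38455561 to 38496335) measured 108.5, 238.6 and 156.9 CPM in MUT libraries 1, 2 and 3, and 45.33, 97.53 and 200.2 CPM in WT libraries 1, 2 and 3. MUT libraries 1 and 2 lay above WT libraries 1 and 2, and WT library 3 lay above MUT libraries 1 and 3. The means were 168 ± 65.7 CPM in MUT and 114.3 ± 78.8 CPM in WT (SD, n = 3 each). The log2 fold change of Cd80 was 0.555 (SE 0.52, 95% interval -0.58 to 1.69), with an adjusted p of 0.999875 in edgeR as for every member. It was 0.17 without WT library 1 and 1.23 without WT library 3, where its unadjusted edgeR p was 0.0436.

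Cd86 (ENSMUSG00000022901, 36603869 to 36666081) measured 52.74, 189.9 and 84.27 CPM in MUT, and 42.46, 155.3 and 60.34 CPM in WT. Library 2 was the highest of each genotype, and the gap between libraries within a genotype was larger than the gap between genotypes. The source names of MUT and WT libraries with the same number end alike, and the labels do not explain the ending. Between libraries that share an ending Cd86 was higher in MUT in 3 of 3 pairs, the 1 member of 7 for which this held, as it did for 14.2% of all tested genes. The log2 fold change was 0.34 (SE 0.59, interval -0.95 to 1.63), with 0.36 (SE 0.39) under the replicate block, and it turned to -0.335 without MUT library 2. Scaled for exon length, the ratio of Cd80 to Cd86 was 2.035, 1.242 and 1.841 in MUT and 1.056, 0.621 and 3.28 in WT, so Cd86 exceeded Cd80 in WT library 2 alone.

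CD86 is also made by dendritic cells, macrophages and B cells, so markers of these cells are given beside it. The summed macrophage markers (9 genes) measured 683.7, 1015 and 532.3 CPM in MUT and 653.2, 1110 and 594.2 CPM in WT. Lyz2, Cd68 and Itgam gave most of these sums, and Mertk was at 0 in 1 WT library. Mertk was higher in every MUT library (9.528, 4.934 and 10.41 CPM) than in any WT library (0, 1.695 and 0.7922 CPM). Adgre1 was lower in every MUT library (8.019, 1.725 and 12.25 CPM) than in any WT library (45.9, 30.47 and 13.95 CPM). Neither passed the test, and 5.39% and 3.96% of all tested genes had these orders. Lyz2 alone averaged 504.8 CPM in MUT and 518 CPM in WT, of sums that averaged 743.7 and 785.6 CPM. The summed thymocyte markers (10 genes, led by Cd4, Cd3e and Cd8a) measured 179.4, 706.6 and 116.7 CPM in MUT and 287.3, 490.4 and 188.2 CPM in WT. Dendritic cell markers (10 genes, led by Zbtb46, Xcr1 and Flt3) summed to 51.27, 104.9 and 99.77 CPM in MUT and 101.7, 164 and 99.16 CPM in WT, with Clec9a, Siglech, Cd209a and Clec10a at 0 in at least 1 library. Library 2 of each genotype was the highest for Cd86 and for the macrophage, thymocyte and dendritic cell sums. Of the 9 macrophage markers, only Lyz2 and Cd68 were highest in library 2 of both genotypes. Library 2 was the lowest of its genotype for Adgre1 in MUT (1.725 CPM) and for Csf1r in WT (17.94 CPM). B cell markers (7 genes, led by Fcmr, Cd79b and Cd79a) summed to 30.66 to 112.9 CPM in MUT and 48.97 to 67.85 CPM in WT, with Pax5 and Cd22 at 0 in a WT library. The part of these cells in the Cd86 and Cd80 values was not tested. Whether the marker RNA came from these cells or from mTEC was not tested either. In bulk libraries fewer cells of a type and less RNA per cell cannot be told apart.

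**Figure D2:**
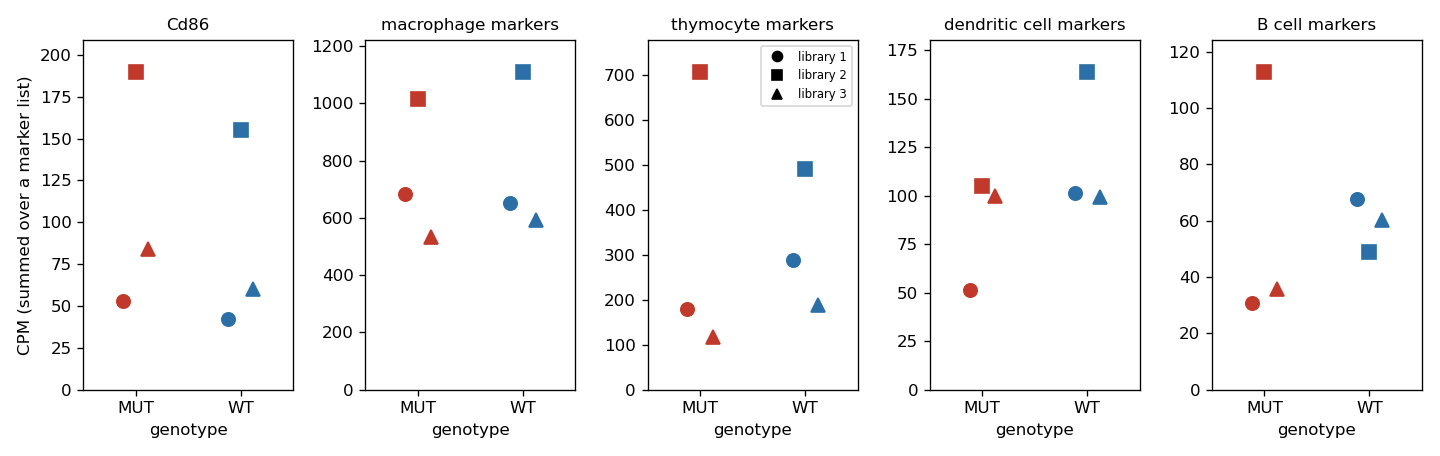
CPM of Cd86 and summed CPM of 4 marker lists in each library, MUT left of WT, with a symbol for each library number. Library 2 (square) is the highest of its genotype for Cd86 (189.9 CPM in MUT, 155.3 CPM in WT) and for the macrophage, thymocyte and dendritic cell sums. It is not the highest for the B cell sum in WT.

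PD-L1 and PD-L2 are the ligands of PD-1, encoded by neighbouring genes on chromosome 19 with the same orientation and 22824 bases between them. Cd274 (ENSMUSG00000016496, 29367455 to 29388095) averaged 419.5 ± 99.8 CPM in MUT and 307.7 ± 47.5 CPM in WT. Its libraries measured 311.1, 507.5 and 439.9 CPM in MUT, and 321.8, 254.8 and 346.6 CPM in WT. MUT libraries 2 and 3 lay above all WT libraries, and MUT library 1 lay between WT libraries 2 and 1. The log2 fold change of 0.45 (SE 0.31, interval -0.235 to 1.13) did not pass the test, and it stayed between 0.275 and 0.62 with any 1 library left out. Cd274 had the smallest unadjusted p of the 7, 0.178, which ranked 2550 among all tested genes. An annotated antisense gene, AC119228.1, shares 511 exon bases with Cd274 and has no row of its own in the count table. Its reads cannot be told apart from those of Cd274 without the strand setting.

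Pdcd1lg2 (ENSMUSG00000016498, 29410919 to 29471161) measured 36.46, 20.89 and 22.26 CPM in MUT, and 0.9192, 21.1 and 14.13 CPM in WT. WT library 1 held 16 counts of it, against 321 to 773 in the other libraries. The fitted log2 fold change of 1.14 (SE 1.01, interval -1.06 to 3.34) was 0.59 without that library and 1.80 without WT library 2. Scaled for exon length, the ratio of Cd274 to Pdcd1lg2 was 4.62, 13.16 and 10.7 in MUT and 189.5, 6.539 and 13.28 in WT, where library 1 stood apart.

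The windows around the starts of these neighbours and of Icosl, the other abundant ligand gene, are shown to compare 2 adjacent genes whose products bind the same receptor with the other ligand gene of high level per exon length. Each runs 5′ to 3′ from 250 bases before to 50 after the start in RefSeq on GRCm38.p6, and capitals mark matches to GGGNNNNNCC on either strand, a loose form of the NF-kappaB motif. Cd274 lies at chr19:29367188-29367487 and Pdcd1lg2 at chr19:29410669-29410968, both on the plus strand, and Icosl at chr10:78069118-78069417 on the plus strand.
Cd274: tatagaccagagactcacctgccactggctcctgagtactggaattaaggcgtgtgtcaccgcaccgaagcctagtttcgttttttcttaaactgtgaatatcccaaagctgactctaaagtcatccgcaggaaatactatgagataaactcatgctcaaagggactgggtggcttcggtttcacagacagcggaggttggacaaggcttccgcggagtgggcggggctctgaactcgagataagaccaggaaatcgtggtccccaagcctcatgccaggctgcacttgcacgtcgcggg
Pdcd1lg2: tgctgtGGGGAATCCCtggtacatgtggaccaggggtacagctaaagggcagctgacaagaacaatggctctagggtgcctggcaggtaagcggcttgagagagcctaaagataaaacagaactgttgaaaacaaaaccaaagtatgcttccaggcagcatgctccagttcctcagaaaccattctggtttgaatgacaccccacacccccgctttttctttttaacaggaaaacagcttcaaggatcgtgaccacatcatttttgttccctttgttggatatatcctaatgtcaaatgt
Icosl: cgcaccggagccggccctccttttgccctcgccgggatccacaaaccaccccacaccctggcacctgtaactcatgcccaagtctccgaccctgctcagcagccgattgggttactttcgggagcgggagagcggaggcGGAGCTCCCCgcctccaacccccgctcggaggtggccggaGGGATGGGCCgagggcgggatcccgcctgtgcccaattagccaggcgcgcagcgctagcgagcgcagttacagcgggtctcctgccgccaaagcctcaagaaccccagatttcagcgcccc
RefSeq windows were matched for 5 of the 7 genes (Cd80, Cd274, Pdcd1lg2, Icosl and Cd276). None of the 5 held the interferon motif cores GAAANNGAAA or TTCNNNGAA on either strand, which 3.44% and 8.30% of the 32851 promoter windows in the table held. GGGNNNNNCC was found in 50.8% of all windows, and at 0 places in that of Cd274, 1 in Pdcd1lg2, 2 in Icosl, 2 in Cd80 and 9 in Cd276. A missing match says only that these letters are not in this window. The Icosl window was 68.0% G and C with 26 CG pairs, that of Cd274 52.7% with 15, and that of Pdcd1lg2 46.0% with 3, against medians of 52.7% and 7 over all windows.

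ICOS ligand and B7-H3 are the remaining B7 members. Icosl (ENSMUSG00000000732, chromosome 10, 78069302 to 78083913) measured 235.0, 270.8 and 429.9 CPM in MUT, and 430.8, 331.1 and 353.5 CPM in WT. MUT libraries 1 and 2 were the lowest, and MUT library 3 lay just under WT library 1. The log2 fold change of -0.25 (SE 0.33, interval -0.97 to 0.46) did not pass the test, and it ran from -0.56 to -0.09 with 1 library left out. Within each library Icosl, scaled for exon length, stood at 0.5923, 0.4184 and 0.7661 times Cd274 in MUT and at 1.05, 1.019 and 0.7997 times in WT. This ratio, 1 of 4 computed between members and the 1 of them without overlap, was lower in every MUT library. The ratio of a gene to Cd274 was lower in every MUT library for 9.10% of the other tested genes, so this order was not rare in the table.

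Cd276 (ENSMUSG00000035914, chromosome 9, 58524298 to 58555437) measured 1.745, 11.11 and 34.76 CPM in MUT, and 80.72, 6.216 and 34.42 CPM in WT. WT library 1 was the highest and MUT library 1 the lowest, and the libraries numbered 3 were nearly equal. The log2 fold change of -1.35 (SE 1.07, interval -3.68 to 0.99) was -0.38 without WT library 1 and -2.66 without MUT library 3. The annotated gene Gm10657 shares 416 exon bases with Cd276 on the opposite strand. It had 0, 0 and 1 counts in MUT and 0, 0 and 403 in WT. The strand setting of the counting is not given, so reads of the 2 cannot be told apart there.

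CD70, the TNF family member, is the ligand of CD27 on thymocytes. Cd70 (ENSMUSG00000019489, chromosome 17, 57145997 to 57149777) measured 11.98, 9.676 and 18.54 CPM in MUT, and 2.241, 56.37 and 12.81 CPM in WT. The 3 MUT libraries lay inside the range of the WT libraries, whose highest (library 2) and lowest (library 1) were the extremes of all 6. The log2 fold change was -0.83 (SE 1.05, interval -3.12 to 1.46), and it turned to 0.81 without WT library 2. It was also above 0 with the replicate number as a block (0.22) and in limma-voom (0.04). The gene for its receptor, Cd27, measured 9.151, 32.48 and 7.444 CPM in MUT and 6.549, 47.28 and 13.56 CPM in WT, also highest in WT library 2.

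**Figure D3:**
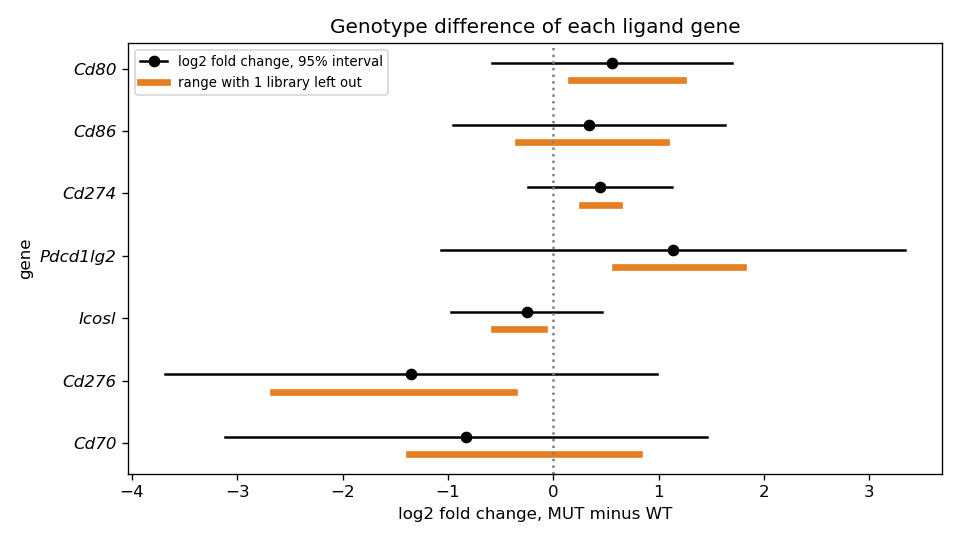
Log2 fold change (MUT minus WT) of each ligand gene with its 95% interval (black) and the range of values with 1 library left out (orange). All 7 intervals include 0, and the orange bars of Cd86 (-0.335 to 1.07) and Cd70 (-1.37 to 0.81) cross 0.

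Levels of different genes were compared as CPM per kilobase of exon. Averaged over the 6 libraries, the order was Cd274 (100.4 ± 25.6, SD over 6), Icosl (73.99 ± 17.4), Cd80 (38.1 ± 19.2), Cd86 (26.6 ± 16.6), Cd70 (22.1 ± 22.85), Pdcd1lg2 (9.84 ± 5.92) and Cd276 (7.699 ± 8.03). Neighbours in this order differed by less than the spread of their difference between libraries, except Icosl and Cd80. Cd274 exceeded Icosl in 4 of 6 libraries (a mean difference of 26.4 ± 31.2), the exceptions being WT libraries 1 and 2. Icosl exceeded Cd80 in 5 of 6 (35.9 ± 29.9), Cd80 exceeded Cd86 in 5 (11.5 ± 18.1) and Pdcd1lg2 exceeded Cd276 in 4 (2.14 ± 13.5). Together the 7 genes summed to 213.8, 340.2 and 322.7 CPM per kilobase in MUT and 231.1, 290.2 and 274.6 in WT. Cd274 took 40.2%, 41.2% and 37.6% of that sum in MUT, and 38.4%, 24.2% and 34.9% in WT. Icosl took 23.8%, 17.2% and 28.8% in MUT, and 40.3%, 24.7% and 27.9% in WT.

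**Figure D4:**
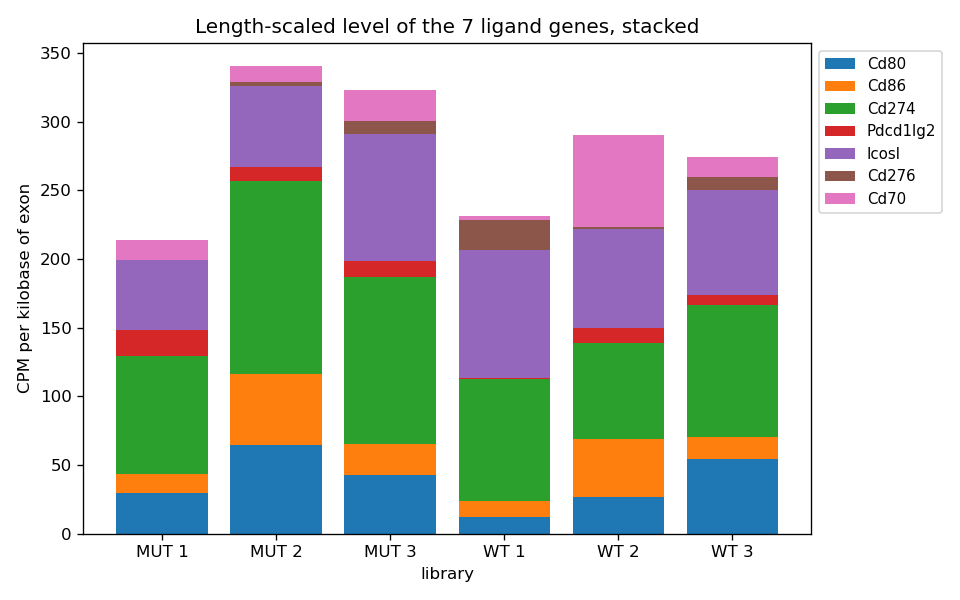
CPM per kilobase of exon of the 7 ligand genes, stacked for each library, MUT left of WT. Cd274 and Icosl make up the largest parts in most libraries, and Cd70 takes 23.1% in WT library 2 alone, against at most 6.82% elsewhere.

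The ligand genes varied together in part. Over the 6 libraries the closest pairs by Pearson correlation of log2 CPM were Icosl with Cd276 (0.888), Pdcd1lg2 with Cd70 (0.764) and Pdcd1lg2 with Cd80 (0.721). The neighbours Cd274 and Pdcd1lg2 had 0.147, and Cd80 with Cd86 0.538. These pairs share 6 libraries and their scaling factors, and WT library 1 holds the highest or lowest value of every member except Cd274. Among 12736 other genes of at least 5 CPM, those most like each member were Plat and Keap1 for Cd80 (0.994 each), Ptcra and Ndufa10 for Cd86 (0.988 and 0.985), and Farsa and Tmem41a for Cd274 (0.998 and 0.997). For Pdcd1lg2 they were Mroh1 and Ankfy1, for Icosl Mtdh and Dgkh, for Cd276 Taf7 and Ache, and for Cd70 Pik3cb and Gm648, at 0.978 to 0.9985. Between 0.667% (Cd274) and 5.25% (Pdcd1lg2) of the compared genes had a correlation over 0.9 with a member. The listed genes are the 2 highest of 12736 for each member, and no share was computed at their own values. Ptcra encodes the pre-T cell receptor alpha chain, a thymocyte gene, and measured 0, 33.29 and 1.445 CPM in MUT and 0, 19.54 and 0.3961 CPM in WT.

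Other genes for ligands that T cells meet on presenting cells gave no call either. Of 20 listed genes 17 were tested and 0 passed, and 11 had a fitted value above 0, with a list median of 0.14 on the log2 scale. The genotypes overlapped for each of the 17. Icam1, the adhesion ligand of LFA-1, measured 354.2, 285.1 and 317.3 CPM in MUT and 256.6, 192.5 and 313.1 CPM in WT (log2 fold change 0.33, SE 0.32). Nectin2, a ligand of TIGIT and CD226, measured 52.45, 57.68 and 21.1 CPM in MUT and 19.36, 21.76 and 34.81 CPM in WT (0.79, SE 0.64). Ceacam1, an adhesion molecule with an inhibitory form, had 0.725 (SE 0.64), or 0.17 without MUT library 2. The CD30 ligand gene Tnfsf8 measured 4.67, 112.1 and 3.541 CPM in MUT and 0, 4.285 and 7.35 CPM in WT. MUT library 2 alone set its fitted log2 fold change of 3.37 (SE 1.65), which was 0.07 without it. Tnfsf15, which encodes the DR3 ligand TL1A, measured 2.17, 8.239 and 12.29 CPM in MUT and 3.102, 220.8 and 14.26 CPM in WT. WT library 2 set its log2 fold change of -3.39 (SE 1.27), which was -0.22 without it. With no filter on low counts, edgeR called Tnfsf15 lower in MUT (adjusted p 0.0144).

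T cell receptors of these ligands were counted as well, in cells isolated as epithelium. Of 16 listed genes 13 were tested and 0 passed, and 6 had a fitted value above 0, with a list median of -0.195 on the log2 scale. Their summed level was 193.6, 409.6 and 201 CPM in MUT and 250.7, 449.3 and 273.6 CPM in WT, highest in library 2 of each genotype, as were the thymocyte markers. Tnfrsf9, which encodes 4-1BB, measured 26.79, 75.93 and 68.29 CPM in MUT and 98.13, 100.8 and 128 CPM in WT, and all MUT libraries lay below all WT libraries. Its log2 fold change of -0.935 (SE 0.48, unadjusted p 0.0763) did not pass the test, and 3.96% of all tested genes were separated in this direction. Tigit was separated the other way, at 1.509, 5.317 and 2.096 CPM in MUT and 0.05745, 1.224 and 1.364 CPM in WT (1.74, SE 1.93). Its WT values rest on 1, 26 and 31 counts, and 5.39% of all tested genes were separated in this direction. The CD30 gene Tnfrsf8 measured 62.97, 41.96 and 36.64 CPM in MUT and 26.43, 22.7 and 47.58 CPM in WT (0.55, SE 0.58). Cd28 had a log2 fold change of -1.01 (SE 1.17) and the OX40 gene Tnfrsf4 -1.02 (SE 1.24). Without WT library 2 these turned to 0.89 and 0.32. Pdcd1, the gene of PD-1, had counts in library 3 of each genotype alone and was not tested.

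Genes that set the surface amount of PD-L1 or CD86 had 4 of 4 members tested, 0 passed and 0 fitted above 0, against 49.4% of all tested genes above 0. The list median of -0.91 on the log2 scale lies between Cmtm4 (-1.52) and Marchf8 (-0.29), as the list holds 4 genes. Cmtm4, whose product stabilises PD-L1 in human cells together with CMTM6, measured 25.85, 9.293 and 50.19 CPM in MUT and 58.89, 128.7 and 56.86 CPM in WT. All MUT libraries lay below all WT libraries, an order that 3.96% of all tested genes had. The log2 fold change of Cmtm4 was -1.52 (SE 0.66, unadjusted p 0.0409, adjusted p 0.999875 in edgeR), with values of -2.22 to -1.04 with 1 library left out. Cmtm6 measured 132.9, 187.8 and 279.1 CPM in MUT and 351.8, 149.4 and 190.9 CPM in WT. Its log2 fold change of -0.21 (SE 0.41) turned to 0.22 without WT library 1 and to 0.02 without MUT library 1. The ubiquitin ligase genes Marchf1 and Marchf8, named March1 and March8 in the annotation, act on MHC class II and CD86. Marchf1 had -1.55 (SE 1.67), or -0.60 without WT library 3. Marchf8 had -0.29 (SE 0.69), which turned to 0.95 without WT library 1, to 0.08 with the replicate block and to 0.13 in limma-voom.

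**Figure D5:**
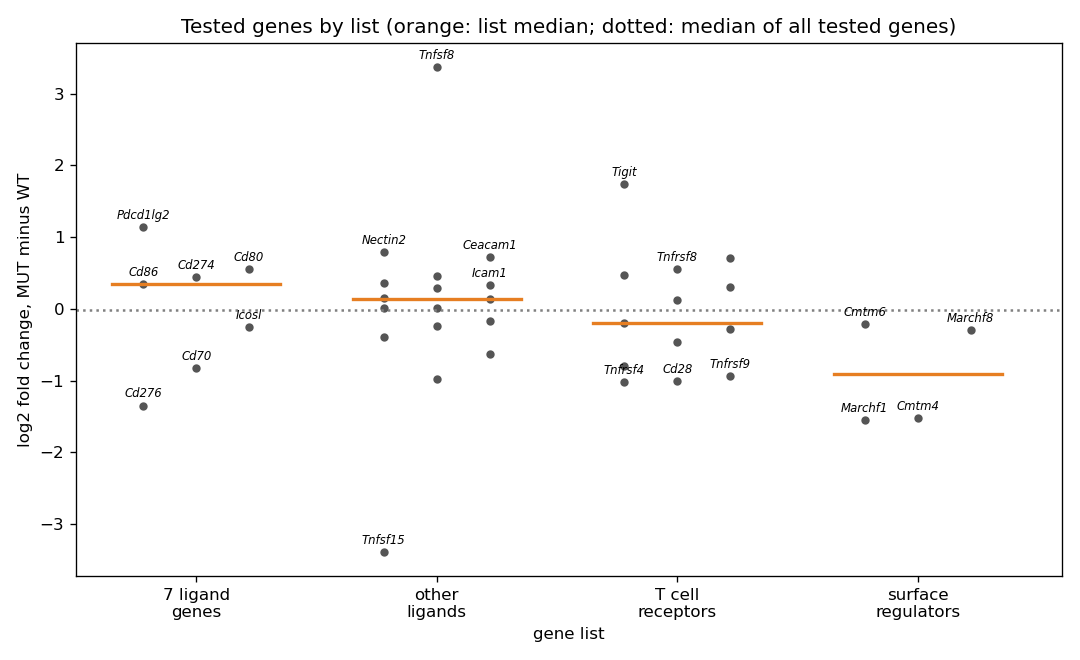
Log2 fold change (MUT minus WT) of each tested gene by list, with list medians in orange and the median of all tested genes dotted. The medians are 0.34 for the 7 ligand genes, 0.14 for other ligands, -0.195 for T cell receptors and -0.91 for surface regulators, and Tnfsf8 (3.37) and Tnfsf15 (-3.39) are the extremes, each set by 1 library.

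Genes of mature mTEC, the state that high CD80 marks, had 10 of 10 members tested, of which 0 passed and 3 fitted above 0, and the list median was -0.14 on the log2 scale. Their summed level was 40850, 37340 and 28670 CPM in MUT and 49670, 48260 and 38120 CPM in WT, most of it Cd74, H2-Aa and H2-Ab1. The sum was lower in MUT in all 3 pairs of libraries with the same number, while the 2 genotypes overlapped. The share of all tested genes with this order was not computed, and 14.2% were higher in MUT in all 3 pairs. Cd74 alone measured 24920, 17880 and 12580 CPM in MUT and 32760, 24520 and 21170 CPM in WT. WT library 1 had the highest sum and the lowest Cd80, and Cd74 made up 32760 of the 49670 CPM in that sum. The markers were split in that library. It was the highest of all libraries for Cd74, Fezf2 (865.8 CPM) and Ciita (309 CPM). It was the lowest for H2-Aa (5557 CPM), Cd40 (106.9 CPM) and Ctss (49.98 CPM).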

How the data were processed

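RNA was measured in mTEC of 3 MUT and 3 WT libraries. The authors deposited raw read counts per Ensembl gene ID, 1 column per library. Per the submitters' processing notes, the genome build was GRCm38, and STAR 2.4.2a and DESeq2 1.26.0 are named without the step each served. Which program counted the reads, on which annotation and with which strand setting is not given in the sources used here. The members and lists were chosen with earlier results of these data known.

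Symbols came from GENCODE M21 on GRCm38 (42462 of 43432 IDs matched), as did coordinates and lengths, which are the union of a gene's exons. Every row named a gene, and 0 count columns were left unused. Genotype (MUT minus WT) was tested with edgeR 4.0.16 in R 4.3.3, with the filterByExpr filter, TMM factors and a robust quasi-likelihood F-test. P-values were adjusted by Benjamini-Hochberg over the 17172 genes kept, with a threshold of 0.05. CPM used the TMM-scaled totals of the tested genes, and log2 CPM a prior count of 2. Standard errors were derived from the F statistic, and 95% intervals used the fit's degrees of freedom. The fit was also run on simulated data, whose changes were larger than those fitted for the members. That run does not show how often changes as small as theirs would be called.

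By rule, the text names all 7 members, Copa, and up to 5 genes with the smallest p in each list of other ligands, receptors and surface regulators. It also names up to 3 of the most abundant genes of a marker list and the 2 genes of at least 5 CPM most correlated with a member. Other marker genes were named after their values were seen. Alternatives tried were a block for the replicate number, scaling by DESeq2 size factors or upper quartiles, no filter, a filter of 10 CPM in 3 libraries, DESeq2 1.42.0, limma-voom 3.58.1, and each library left out in turn.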

Additional observations from a re-analysis of the deposited data

How the results depend on the processing

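The count of genes past an adjusted p of 0.05 was 0 with edgeR's quasi-likelihood test and stayed at 0 with DESeq2 size factors, upper-quartile factors, the stricter filter, limma-voom and each library left out in turn (0 to 0). It was 1 with the replicate block, 73 without a filter and 116 with DESeq2 (78 higher, 38 lower), and the cause was not tested. No alternative called any of the 7 members. Over every gene fitted, the median log2 fold change was 0.16 without a filter (28820 genes) and 0.15 with DESeq2 (43432 genes), but -0.014 and -0.026 over the 17172 genes of the filtered table, so the added low-count genes moved the median. With 1 library left out, Cd86 ran from -0.335 to 1.07 and Cd70 from -1.37 to 0.81, and Cd70 was 0.22 with the replicate block and 0.04 in limma-voom. Copa ran from -0.42 to 0.135, Cd28 from -3.15 to 0.89, Tnfrsf4 from -1.62 to 0.32, Cmtm6 from -0.53 to 0.22 (0.02 without MUT library 1) and Marchf8 from -0.73 to 0.95. Marchf8 was 0.079 with the replicate block and 0.13 in limma-voom. Aire ran from -0.085 to 0.27 (-0.074 without MUT library 3). The pseudogene Gm15953 passed with DESeq2 alone (6.66, adjusted p 0.0399). The other members, the other genes named by rule from the lists of ligands, receptors and surface regulators, and Jak2, Gpr108, Ildr1 and Casr kept their direction under every alternative run.

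Source names of same-numbered MUT and WT libraries end alike, but no label says what the ending stands for. Deviations of the MUT and WT libraries with the same number correlated at 0.1, 0.059 and 0.127, and the main test did not take the numbers as pairs. By chi-square per degree of freedom of raw counts, MUT and WT library 3 were the most alike of any 2 libraries (84.41). MUT library 1 was closer to WT library 3 (180) than to WT library 1 (257.4). The replicate block lowered the SE of Cd86 from 0.59 to 0.39 and raised that of Pdcd1lg2 from 1.01 to 1.28. The deviations, taken from the mean of each genotype, correlated best across genotypes between libraries of the same number. They cancel out within a genotype, so these correlations are not independent of each other. By raw counts MUT library 1 was not closest to its own number. Whether same-numbered libraries share a source cannot be told from the labels. With 3 libraries per genotype, the median SE of all tested genes was 1.03 on the log2 scale. Among the members, differences in Pdcd1lg2, Cd276 and Cd70 were the least precise (SE 1.01, 1.07 and 1.05), near that median. The SE of Cd274 was 0.31.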

Other observations

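Within 100 kilobases of the 7 ligand genes lay 37 other tested genes, of which 20 had a fitted value above 0 and 0 passed the test. Every MUT library lay above every WT library for 5 of them (13.5%, against 5.39% of all tested genes) and below for 0, and genes in a cluster are not independent of each other. The 5 were Jak2, Gpr108, Ildr1, Casr and the processed pseudogene Gm15953. Jak2, a kinase gene of cytokine signalling, lies 54375 bases from Cd274. It measured 158.8, 228.8 and 172.4 CPM in MUT and 69.63, 156.3 and 118 CPM in WT (log2 fold change 0.70, SE 0.40). Casr, the calcium-sensing receptor gene, lies 41728 bases from Cd86 and measured 76.13, 55.38 and 43.76 CPM in MUT and 8.273, 24.44 and 23.94 CPM in WT (1.63, SE 0.635). Ildr1, also near Cd86, had 0.59 (SE 0.57), and Gpr108, near Cd70, had 1.01 (SE 0.46). Gm15953, near Cd80, had 657, 277 and 18 counts in MUT and 0, 0 and 10 in WT.

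Icosl lies 25692 bases from Aire on the opposite strand, and Aire had a log2 fold change of 0.08 (SE 0.29). Plgrkt, 65 bases from Cd274 and on the opposite strand, measured 69.29, 73 and 50.23 CPM in MUT and 86.92, 47.28 and 58.71 CPM in WT. On chromosome 17 Cd70 neighbours Tnfsf9 and Tnfsf14, which encode the 4-1BB ligand and LIGHT. Tnfsf9 measured 33.68, 28.69 and 26.85 CPM in MUT and 43.66, 8.382 and 28.43 CPM in WT, lowest in WT library 2, where Cd70 was highest. The distance was chosen with results known, and Aire, Plgrkt, Tnfsf9 and Tnfsf14 were named after their values were seen.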
